A study of Mus musculus with 6 samples.

Results

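Interferon-stimulated genes are the genes that cells switch on when they sense an interferon, and 36 of them, named as a list, were followed in endothelial cells sorted from the mammary glands of PyMT mice. A listed gene was measured where at least 1 probe set of the array was annotated to that gene alone, and where several were, the brightest over the 6 arrays represented it. This gave values for 34 of the 36 genes, on 54 probe sets, among 18193 genes measured in the same way. Isg15, the ubiquitin-like modifier, had only a probe set shared with Gm9706 and was given no value, and Ifi44 was not analysed here.

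The comparison asks whether endothelial cells read out their genes differently when the fibroblasts around them lack the transcription factor Ets2. The control group held 3 samples of the genotype PyMT;Ets2db/loxP, and the deleted group held 3 samples of the genotype PyMT;Fsp-cre;Ets2db/loxP. All 6 came from FVB/N mice at 9 weeks of age, and each sample was hybridized to 1 array. The polyoma middle T oncogene (PyMT), expressed in the mammary epithelium, was present in both groups, as were the Ets2db allele, in which the DNA-binding domain was targeted in every cell, and the loxP allele, which Cre can delete. The Fsp-cre transgene, driven by the promoter of Fsp1 (S100a4), a gene that some leukocytes also use, was carried by the deleted group and removes the loxP allele in fibroblasts, so the controls themselves had a single working copy of Ets2 and no mouse was wild type for it. For the controls the labels conflict, since 1 field denies an oncogene while the genotype and other fields name PyMT, and the genotype was followed. Cells were released with collagenase, sorted on CD31 (an endothelial surface protein that some leukocytes also carry) directly into Trizol, and their RNA was amplified before labelling.

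Type I interferons bind the receptor Ifnar1 and Ifnar2, the kinases Jak1 and Tyk2 phosphorylate signalling factors that include Stat2, and the complex ISGF3, which holds Stat2 and Irf9, binds interferon-stimulated response elements (ISREs) in promoters. Interferon-gamma acts through a separate receptor and on gamma-activated sites (GAS). The induced proteins sense viral RNA, degrade it, block its translation, modify proteins with Isg15 or hold virions at the membrane, and several of them, among them Irf7, Stat2 and Rigi, feed back on the response. Endothelial cells respond to both kinds of interferon.

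No interferon-stimulated gene on the list differed between the groups after adjustment over all probe sets, and the list as a whole did not lie to either side. Of the 34 measured genes, 18 (against 50.9% of all genes) were higher and 16 (against 49.1%) were lower in the deleted group. Their median difference, deleted minus control, was 0.01 on the log2 scale, with a range of -0.53 to 0.46, and the median over all 18193 genes was 0.00. The limma test gave no adjusted p under 0.05 for any of them (0 of 34), nor for any of the 45037 probe sets tested (0.0% called), and the smallest adjusted p in the table was 0.9999. The count of probe sets with an unadjusted p under 0.05 was 934. None of the 34 genes (0) differed more than 2-fold at that p, beside 0.0934% of all genes.

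The antiviral membrane protein Bst2 and the oligoadenylate synthetase Oas3 were the genes of the list with an unadjusted p under 0.05, Bst2 at the higher and Oas3 at the lower level in the deleted group. That is 1 of 34 in each direction, beside 0.72% of all genes higher and 1.07% lower (1.79% in all). In 4 of the 34 genes the 3 deleted arrays did not overlap the 3 control arrays, with Bst2, Irgm1 and Xaf1 higher and Oas3 lower, beside 6.07% of all genes (3.36% higher and 2.7% lower). With 3 arrays a group the 95% interval of a difference had a median half-width of 0.45 on the log2 scale for the listed genes and 0.43 for all genes. For 32 of the 34 genes the whole interval lay between -1 and 1, that is, within a 2-fold difference in either direction, and the exceptions were Ifit1 and Mx1.

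**Figure D1:**
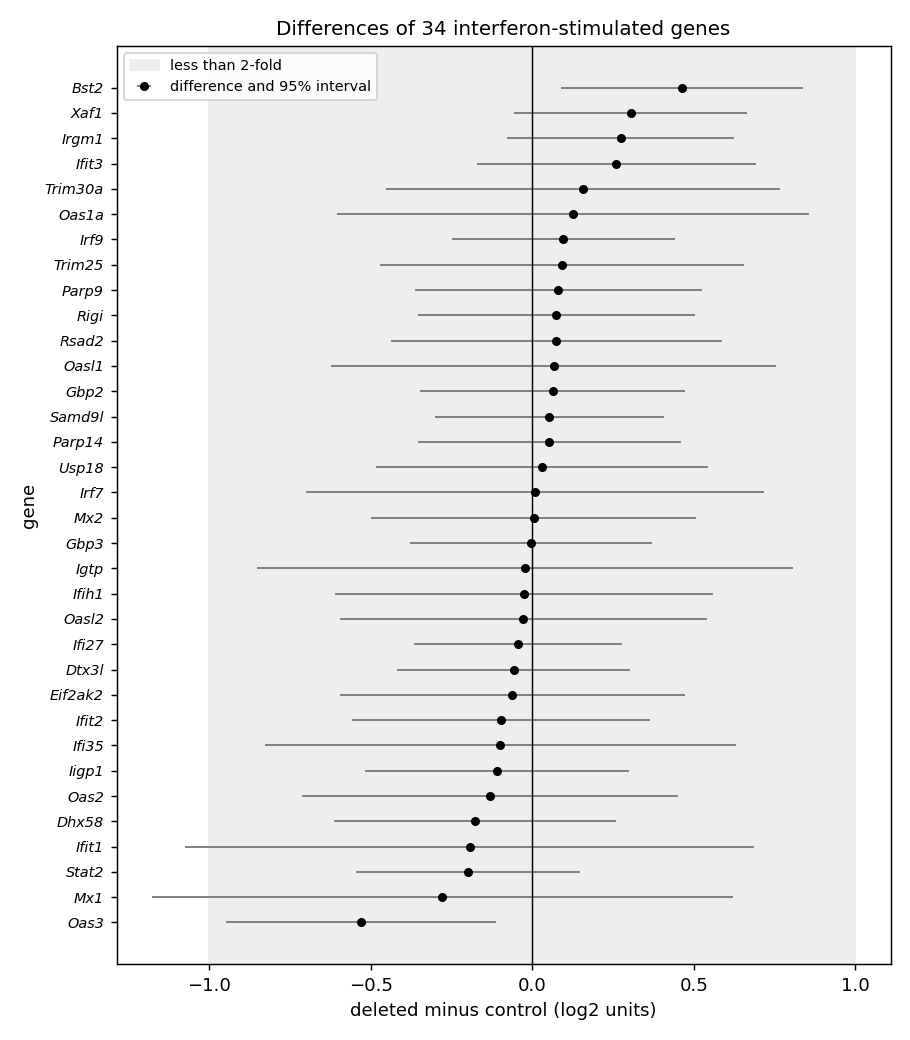
Difference between the groups (deleted minus control, log2 units, x axis) for each of the 34 measured interferon-stimulated genes (y axis, in order of the difference), from limma on 3 arrays against 3. Points are the differences and bars their 95% intervals, and the shaded band marks less than a 2-fold difference. The points run from -0.53 (Oas3) to 0.46 (Bst2), and these are the genes whose bars leave out 0.

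The genes lie scattered over the genome apart from small clusters of related genes (mouse assembly GRCm38.p6). Ifit1, Ifit2 and Ifit3 lie within 99.5 kb on chromosome 19 (34550550 to 34650009), and Oas1a, Oas2 and Oas3 within 177 kb on chromosome 5 (120730333 to 120907544). Oasl1 and Oasl2 are neighbours elsewhere on chromosome 5, Mx1 and Mx2 share a stretch of 114 kb on chromosome 16, Gbp2 and Gbp3 lie close together on chromosome 3, and Parp9, Dtx3l and Parp14 fall within 141 kb on chromosome 16.

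Promoter windows from RefSeq on the same assembly, running from 250 bases before to 50 bases after the annotated start, were at hand for 27 of the 36 genes. The core of the ISRE (GAAA, any 2 bases and GAAA again, searched on both strands) was present in 16 of these windows (59.3%), whereas 1079 of 27025 genes with a window held it (3.99%). The GAS letters (TTCNNNGAA, which read the same on both strands) were present in 6 windows (22.2%) and in 9.55% of all genes. By role, the ISRE core was found in all 4 windows of the interferon-gamma-induced GTPases (Gbp2, Gbp3, Igtp, Irgm1), in all 3 of the nucleic acid sensors (Rigi, Ifih1, Eif2ak2), in 2 of 3 of the IFIT genes, in 2 of 4 of the oligoadenylate synthetases, in 2 of 4 of the Isg15 and ubiquitin pathway, in 1 of 3 of the signalling factors (Stat2, not Irf9 or Irf7) and in 2 of 6 of the membrane and other effectors. A match is a run of letters and was not tested for binding in these cells.

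The windows of 5 genes are printed, because these hold the ISRE core and belong to the genes with the largest differences among those described array by array below. They are written along the gene's own strand, 5′ to 3′, with the ISRE core in capitals. The Oas3 window (chr5:120777610-120777909, minus strand) held 1 core, starting 75 bases before the start of the gene. In the Bst2 window (chr8:71537423-71537722, minus strand) a pair of cores overlapped, starting 130 and 124 bases before the start. The Irgm1 window (chr11:48871371-48871670, minus strand) had the same overlapping arrangement closer to the start, at 30 and 24 bases. The Ifit3 window (chr19:34583279-34583578, plus strand) held separate cores on the opposite strand at 156 and 122 bases, and the Stat2 window (chr10:128270248-128270547, plus strand) held 1 core on the opposite strand at 222 bases.
Oas3: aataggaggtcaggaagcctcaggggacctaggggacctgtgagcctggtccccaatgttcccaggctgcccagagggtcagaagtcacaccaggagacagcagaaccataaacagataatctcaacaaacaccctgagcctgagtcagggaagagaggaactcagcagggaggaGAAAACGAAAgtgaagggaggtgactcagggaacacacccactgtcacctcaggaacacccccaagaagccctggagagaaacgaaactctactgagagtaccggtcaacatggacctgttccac
Bst2: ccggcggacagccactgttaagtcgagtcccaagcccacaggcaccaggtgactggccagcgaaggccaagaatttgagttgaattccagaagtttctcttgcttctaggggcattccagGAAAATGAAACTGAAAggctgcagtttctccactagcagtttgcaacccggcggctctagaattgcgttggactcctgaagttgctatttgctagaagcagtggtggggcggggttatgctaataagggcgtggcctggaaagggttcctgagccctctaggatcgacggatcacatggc
Irgm1: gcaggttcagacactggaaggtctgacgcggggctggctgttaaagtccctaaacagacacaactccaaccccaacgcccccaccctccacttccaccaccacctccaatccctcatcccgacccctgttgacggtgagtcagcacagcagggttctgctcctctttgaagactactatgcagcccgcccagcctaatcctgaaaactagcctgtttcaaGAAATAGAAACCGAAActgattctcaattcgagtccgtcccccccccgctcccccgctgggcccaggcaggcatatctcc
Ifit3: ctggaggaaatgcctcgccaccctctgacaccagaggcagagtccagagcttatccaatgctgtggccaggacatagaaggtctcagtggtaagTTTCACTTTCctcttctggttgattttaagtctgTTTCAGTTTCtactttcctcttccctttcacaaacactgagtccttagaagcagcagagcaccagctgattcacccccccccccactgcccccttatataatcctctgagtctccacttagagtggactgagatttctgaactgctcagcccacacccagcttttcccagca
Stat2: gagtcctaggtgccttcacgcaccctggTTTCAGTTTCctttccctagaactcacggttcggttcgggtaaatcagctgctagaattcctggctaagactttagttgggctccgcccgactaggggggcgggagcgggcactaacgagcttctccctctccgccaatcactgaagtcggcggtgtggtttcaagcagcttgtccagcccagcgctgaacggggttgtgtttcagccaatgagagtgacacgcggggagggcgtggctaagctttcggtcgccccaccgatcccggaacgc

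Of the genes with printed windows, Bst2 and Irgm1 were above the controls on every deleted array, and Oas3 was below them on every deleted array. Ifit3 and Stat2 overlapped between the groups and differed in opposite directions. The genes were picked by the size of these differences, so the arrangement of their cores cannot be set against the direction.

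Signals below are log2 RMA values, in which 1 unit is a 2-fold step and the median of all probe sets is 7.03. They compare arrays for 1 gene and do not order the abundance of different transcripts. Of the 34 genes, 32 had a mean signal above that median, and those below were Oas3 and Oasl1. Each difference is the deleted minus the control mean with its standard error (SE) from limma, n = 3 arrays a group.

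**Figure D2:**
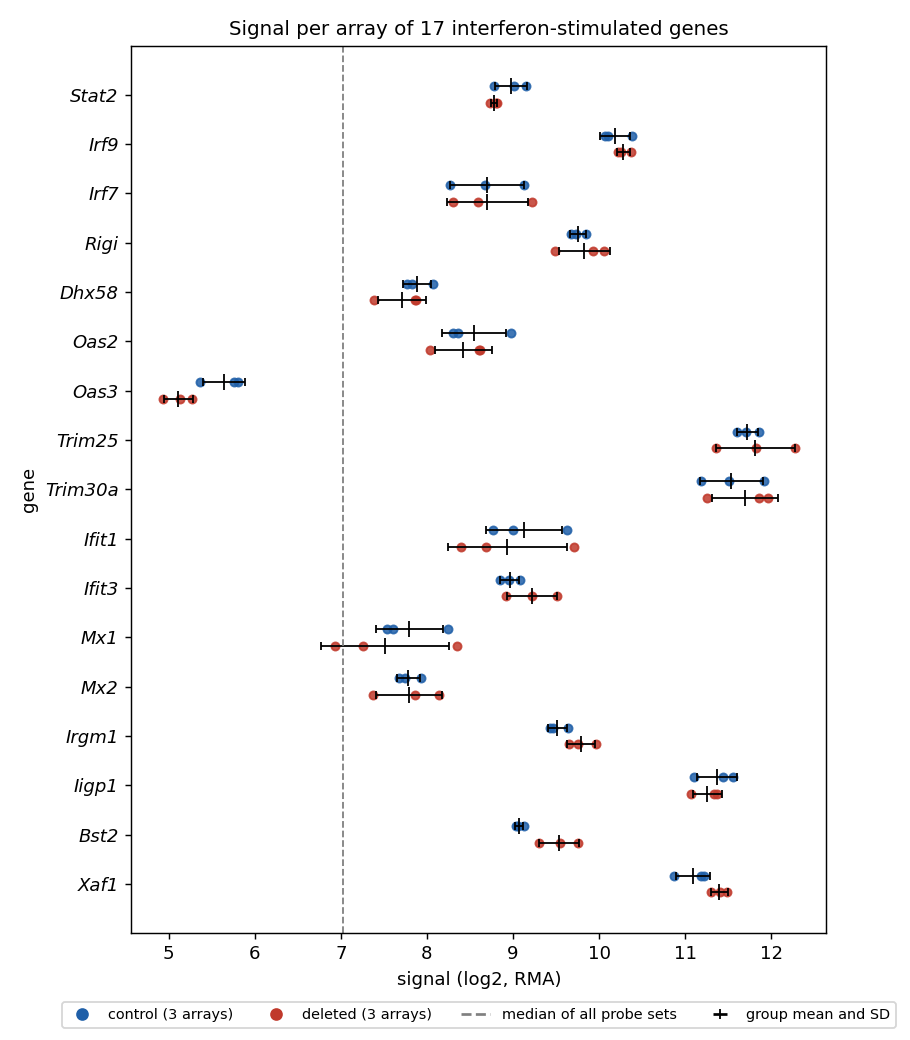
Signal (log2 RMA, x axis) on each of the 3 control and 3 deleted arrays for the 17 interferon-stimulated genes described array by array (y axis), with the group mean and SD and a dashed line at the median of all probe sets, 7.03. The groups are apart for Oas3, Irgm1, Bst2 and Xaf1 and overlap for the other genes, and the deleted arrays spread widest for Mx1 and Ifit1.

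The signalling factors, at the head of the pathway, had differences from -0.20 to 0.10. Stat2, which gives ISGF3 its activation domain, read 8.78, 9.15 and 9.01 on control arrays 1 to 3 and 8.74, 8.80 and 8.81 on deleted arrays 1 to 3. The deleted arrays lay close together at the lower edge of the controls, the lowest control lying among them, and the difference was -0.20 (SE 0.15). A second Stat2 probe set gave -0.05. Irf9, the DNA-binding subunit of ISGF3, read 10.10, 10.38 and 10.07 in the controls and 10.37, 10.23 and 10.26 in the deleted group, with full overlap and a difference of 0.10 (SE 0.15).

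Irf7, the factor that amplifies type I interferon production, varied more between arrays than between groups. It read 8.27, 8.68 and 9.13 in the controls and 8.59, 9.22 and 8.30 in the deleted group. Both groups ran over nearly the same span, from a low of 8.27 to a high of 9.22, and the difference of 0.01 (SE 0.30) had a 95% interval of -0.70 to 0.72.

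Among the nucleic acid sensors, Rigi, the helicase that detects short double-stranded viral RNA, read 9.74, 9.67 and 9.85 in the controls and 10.06, 9.49 and 9.93 in the deleted group. The deleted arrays held both the highest and the lowest value, and the difference was 0.07 (SE 0.18), with 0.05 and 0.10 on the other Rigi probe sets. Dhx58, the related helicase that modulates Rigi and Ifih1, read 7.77, 8.07 and 7.82 in the controls and 7.39, 7.87 and 7.87 in the deleted group. Deleted array 1 was the lowest and the others lay within the control range, giving -0.18 (SE 0.18), and all 3 Dhx58 probe sets were lower, from -0.22 to -0.12. Ifih1, the sensor of long double-stranded RNA, and Eif2ak2, the kinase that halts translation on binding such RNA, differed by -0.03 and -0.06.

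The oligoadenylate synthetases make the second messenger that activates RNase L. Oas3 read 5.76, 5.36 and 5.80 in the controls and 5.13, 5.27 and 4.93 in the deleted group. Each deleted array was below every control array, with a gap of under 0.1 between deleted array 2 and control array 2. The difference of -0.53 (SE 0.18, 95% interval -0.95 to -0.11), a 1.44-fold lower signal, had an unadjusted limma p of 0.020 and an adjusted p of 0.9999. Without control array 1, control array 3 or deleted array 3 the unadjusted limma p of Oas3 was 0.064, 0.057 and 0.068. With array weights the difference was -0.33 and its unadjusted limma p 0.075. Those weights were 8.3 for control array 2 and 0.38 to 0.99 for the other arrays. The Oas3 values are dim, well under the median of all probe sets at 7.03, and RMA values so low hold mostly background.

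Oas2 was at a moderate signal, with 8.31, 8.36 and 8.98 in the controls and 8.61, 8.61 and 8.04 in the deleted group. Its highest value was on control array 3 and its lowest on deleted array 3, while deleted arrays 1 and 2 lay above control arrays 1 and 2, and the difference was -0.13 (SE 0.25). Oas1a differed by 0.13, Oasl1 by 0.07 and Oasl2 by -0.03, so that of the 5 synthetases 2 were higher and 3 lower. Oas1a and Oasl1 ranged over more than 1 log2 unit across the 6 arrays, by 1.17 and 1.03, and both were lowest on control array 1 and highest on deleted array 2.

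Genes of the Isg15 and ubiquitin pathway had differences from -0.06 to 0.16. Trim25, the ubiquitin ligase that activates Rigi, read 11.86, 11.71 and 11.61 in the controls and 12.27, 11.35 and 11.82 in the deleted group. The deleted arrays spanned the controls on both sides, and the difference was 0.09 (SE 0.24), against -0.07 and -0.05 on the other Trim25 probe sets. Trim30a, a tripartite motif protein induced by interferon in the mouse, read 11.91, 11.52 and 11.18 in the controls and 11.86, 11.26 and 11.96 in the deleted group. Its groups overlapped and the difference was 0.16 (SE 0.26), while a second probe set of Trim30a alone gave 0.57. Usp18, which removes Isg15 from proteins and damps receptor signalling, differed by 0.03, and Dtx3l, Parp9 and Parp14, of which the first pair form a ligase complex, by -0.06, 0.08 and 0.05.

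IFIT proteins bind viral RNA and block its translation, and their genes lie in the cluster on chromosome 19. Ifit1 read 8.77, 9.00 and 9.62 in the controls and 8.40, 9.71 and 8.69 in the deleted group. Its highest value, on deleted array 2, and its lowest, on deleted array 1, lay 1.31 apart within the same group, against a difference between the groups of -0.19 (SE 0.37, 95% interval -1.07 to 0.69). Ifit3 read 8.85, 8.95 and 9.08 in the controls and 9.22, 9.52 and 8.92 in the deleted group. Deleted arrays 1 and 2 lay above all controls and deleted array 3 among them, for a difference of 0.26 (SE 0.18). Ifit2 differed by -0.10, so that of these neighbouring genes 1 was higher and 2 were lower.

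Mx1, a dynamin-like GTPase that traps viral nucleocapsids, had the widest range of the list. It read 8.24, 7.60 and 7.54 in the controls and 6.94, 8.35 and 7.26 in the deleted group. The deleted arrays again held both extremes, 1.42 apart, and the difference was -0.28 (SE 0.38, 95% interval -1.18 to 0.62). Its neighbour Mx2, with 7.68, 7.75 and 7.93 in the controls and 7.37, 8.14 and 7.86 in the deleted group, was likewise lowest on deleted array 1 and highest on deleted array 2, with a difference of 0.00 (SE 0.21).

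Of the GTPases that interferon-gamma induces most strongly, Irgm1, which directs immunity-related GTPases to vacuoles and autophagy, read 9.44, 9.64 and 9.47 in the controls and 9.97, 9.76 and 9.65 in the deleted group. The groups were apart, but control array 2 and deleted array 3 nearly touched, and they overlapped once each array was centred on its median. The difference was 0.27 (SE 0.15, 95% interval -0.08 to 0.62), with an unadjusted limma p of 0.107. Iigp1, which attacks the vacuoles of parasites, read 11.11, 11.43 and 11.56 in the controls and 11.07, 11.37 and 11.34 in the deleted group, with overlap and a difference of -0.11 (SE 0.17), against 0.08 on its second probe set. The guanylate-binding proteins Gbp2 and Gbp3 differed by 0.06 and by less than 0.01, and Igtp by -0.02, with a range over the 6 arrays of 1.25 for Igtp.

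Among the membrane and other effectors, Bst2 (tetherin), which holds budding virions at the cell surface, had the largest positive difference of the list. It read 9.12, 9.03 and 9.05 in the controls and 9.54, 9.76 and 9.30 in the deleted group. The controls lay within 0.1 of each other and every deleted array was above them. The difference of 0.46 (SE 0.16, 95% interval 0.09 to 0.84), a 1.38-fold higher signal, had an unadjusted limma p of 0.022 and an adjusted p of 0.9999. When 1 array was left out, the Bst2 difference lay between 0.35 and 0.58, and without control array 2, deleted array 1 or deleted array 2 its unadjusted limma p was 0.067, 0.051 and 0.066.

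Xaf1, a pro-apoptotic antagonist of XIAP, read 11.22, 11.18 and 10.87 in the controls and 11.41, 11.49 and 11.30 in the deleted group. Here too each deleted array exceeded each control, with a difference of 0.30 (SE 0.15, 95% interval -0.06 to 0.67) and an unadjusted limma p of 0.086. The second Xaf1 probe set went the other way, at -0.18. Rsad2 (viperin), which makes a chain-terminating nucleotide, differed by 0.07, Samd9l by 0.05, Ifi35 by -0.10 and Ifi27 by -0.04. The other Rsad2 probe sets gave 0.50 and 0.32, and the second Ifi27 probe set gave 0.30. On the Rsad2 probe set at 0.50, control array 3 read 8.64 and the other arrays 10.37 to 10.92. On a dimmer Ifi35 probe set the difference was 0.41, without overlap and with an unadjusted limma p of 0.043, so the probe sets of Ifi35 did not give 1 direction.

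In all, 14 of the 34 genes had several probe sets of their own, and in 9 of these the probe sets had 1 sign of difference, while in 5 (Trim25, Iigp1, Xaf1, Ifi35 and Ifi27) both signs occurred. Bst2, Oas3 and Irgm1 rested on 1 probe set each.

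The larger of the within-group ranges was wider than the difference between the groups in 32 of the 34 genes (94.1%) and in 97.7% of all genes. The SD within groups, pooled over both, had a median of 0.24 over the listed genes and 0.22 over all genes, and the range over the 6 arrays a median of 0.73 and 0.58. The range exceeded 1 log2 unit in 6 of the 34 (Oas1a, Oasl1, Ifit1, Mx1, Igtp and Ifi35), which is 17.6% beside 17.7% of all genes.

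**Figure D3:**
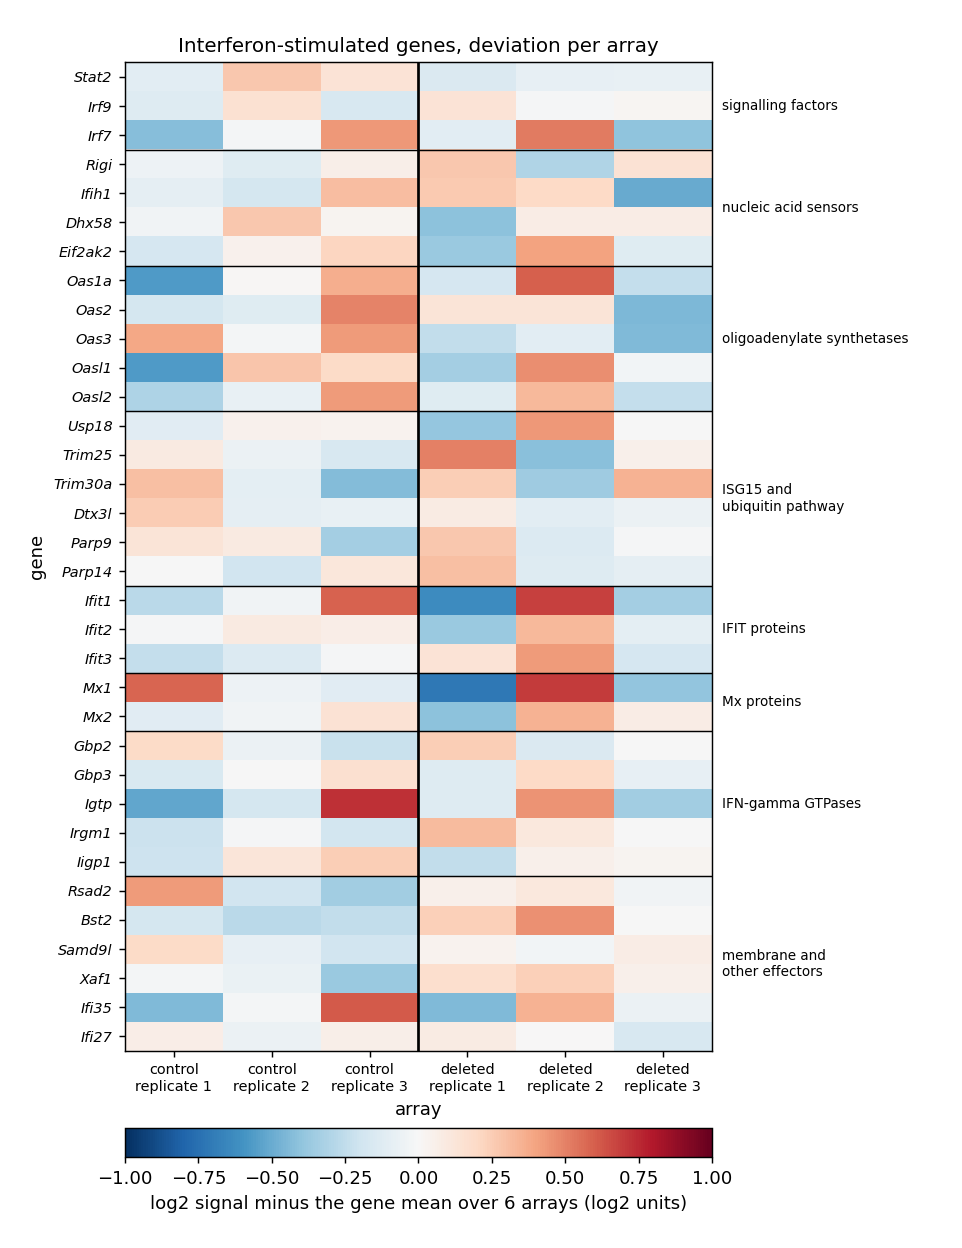
Deviation of each of the 34 measured interferon-stimulated genes (rows, grouped by role) from its own mean over the 6 arrays (columns, control left and deleted right of the line), as color in log2 units. Red runs through the IFIT, Mx and several oligoadenylate synthetase rows on deleted replicate 2, and blue through the Ifit1, Ifit2, Mx1 and Mx2 rows on deleted replicate 1.

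Averaged over the 34 genes, the deviation from each gene's mean was -0.07, -0.02 and 0.09 on control arrays 1 to 3 and -0.06, 0.17 and -0.10 on deleted arrays 1 to 3. The control arrays averaged 0.00 (SD 0.08) and the deleted arrays 0.00 (SD 0.15), and the highest and the lowest array were both in the deleted group. The same mean over all 18193 genes was -0.03, -0.02 and 0.06 on control arrays 1 to 3. On deleted arrays 1 to 3 it was 0.02, 0.02 and -0.05. Deleted array 2 was the highest of the 6 arrays for 13 of the 34 genes (38.2%), compared with 17.1% of all genes, and deleted array 3 for 1 (2.94%), compared with 12.0%. The 13 were Irf7, Eif2ak2, Oas1a, Oasl1, Usp18, Ifit1, Ifit2, Ifit3, Mx1, Mx2, Gbp3, Bst2 and Xaf1. Without deleted array 2 the median difference of the 34 genes was -0.14, Mx1 differed by -0.70 and Ifit1 by -0.58, and no gene of the list had an adjusted limma p under 0.05 (0 of 34).

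The role groups did not share 1 order of arrays. On deleted array 2 the mean deviation was 0.48 for the IFIT genes, 0.52 for the Mx genes and 0.28 for the oligoadenylate synthetases, but 0.13 for the interferon-gamma-induced GTPases and -0.12 for the Isg15 and ubiquitin pathway. Control array 3 was high as well for the oligoadenylate synthetases (0.38) and the IFIT genes (0.22) and low for the Isg15 and ubiquitin pathway (-0.14). On deleted array 1 the Mx genes stood at -0.57 and the IFIT genes at -0.29, whereas the Isg15 and ubiquitin pathway stood at 0.17. A further list of 48 measured interferon-stimulated genes outside the 34 had deviations of -0.04, -0.05 and 0.09 in the controls and -0.01, 0.08 and -0.06 in the deleted group.

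The ligands that would drive such a response were dim. All 7 measured of 11 listed interferon genes were below the median of all probe sets, and 4 were higher and 3 lower in the deleted group. Of the 7, 2 were higher without overlap, beside 3.36% of all genes. The largest differences were those of Ifna11 (-0.37), Ifna4 (0.30, without overlap) and Ifng (0.30, without overlap), none with an unadjusted p under 0.05. Their signals were 3.76 and 3.38 for Ifna11, 3.11 and 3.42 for Ifna4 and 4.53 and 4.82 for Ifng in the control and the deleted group, where values hold mostly background.

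Receptors and kinases were well above the median. Of 9 measured, 8 were higher (against 50.9% of all genes) and 1 was lower (against 49.1%). Their median difference was 0.09, with none at an unadjusted p under 0.05 and none without overlap. The kinase Jak1 differed by 0.34 (SE 0.23) and the receptor chains Ifnar1 by 0.19 (SE 0.23) and Ifnar2 by -0.19 (SE 0.25), so the chains of the type I receptor lay on opposite sides of 0 within their errors. Of 7 measured signalling factors outside the list of 36, 4 were higher and 3 lower, the largest differences being Irf8 at 0.29, Irf1 at 0.28 and Stat3 at -0.27.

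Among 12 further sensors and adaptors, 5 were higher and 7 lower, led by the DNA sensors Zbp1 (-0.24) and Cgas (0.15) and the RNA-sensing receptor Tlr7 (-0.23). Of 9 inhibitors of interferon signalling, 4 were higher and 5 lower, and the largest differences were those of Nlrx1 (-0.54, SE 0.49), Pias4 (-0.22) and Nlrc5 (-0.20). Of the 48 further interferon-stimulated genes, 27 were higher and 21 lower with a median difference of 0.03. The largest were Ifi27l2a (-0.40), the chemokine Cxcl11 (0.35) and Ube2l6 (0.35), the conjugating enzyme for Isg15, and the chemokine Cxcl10 stood at 0.12. In this list Ube2l6 and Ifi47 were higher and Trim21 and Tap1 lower without overlap, 4 of 48 beside 6.07% of all genes. These 4 were named after their values were seen. No gene of the ligand, receptor, factor, sensor, inhibitor and further lists had an unadjusted p under 0.05 (0 in each).

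The sorted cells carried RNA of other cell types, and some of it moved with the groups. Endothelial markers were bright on all arrays (mean signals 10.0 to 13.2 over 13 genes, led by Flt1 and Emcn, with Pecam1, the sorted antigen, at 11.30 in the controls and 11.69 in the deleted group and Cdh5 at 10.97 and 11.09). Epithelial markers, led by Csn3 and Krt8, were bright as well (10.5 to 14.6 over 11 genes). In the deleted group 11 of 13 endothelial markers had a higher mean (median difference 0.11), beside 50.9% of all genes. A lower mean was seen for 10 of 11 epithelial markers (median -0.14) and 9 of 12 pan-leukocyte markers (median -0.39). The mean deviations of these lists overlapped between the groups, and none of their genes had an unadjusted limma p under 0.05. Of 20 macrophage markers, with Lyz2 and Cd14 the brightest, 19 had a lower mean in the deleted group (8 with an unadjusted p under 0.05), with a median difference of -0.61 and mean deviations of 0.15 to 0.53 on the control arrays and -0.54 to -0.06 on the deleted arrays. Of 15 fibroblast markers, with Col3a1 and Col1a1 the brightest, all 15 had a lower mean (7 with an unadjusted p under 0.05), with a median of -0.42 and deviations of 0.09 to 0.53 against -0.39 to -0.21. Of all genes, 49.1% had a lower mean in the deleted group, and 1.07% were lower with an unadjusted limma p under 0.05. The marker lists were chosen with earlier results of these data known, so their counts describe the lists and do not test them against all genes. In bulk samples, fewer cells of a type and less RNA per cell cannot be told apart. The leukocyte gene Ptprc differed by -0.43, the macrophage gene Adgre1 by -0.91 and the plasmacytoid dendritic cell gene Siglech by 0.22 (the brightest of that list being Tcf4 and Ly6d), none with an unadjusted p under 0.05. Adjusted p-values were 0.9999 throughout these lists.

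Lymphocyte and natural killer cell markers, 12 measured and Cd3e and Nkg7 the brightest, averaged 0.24, -0.41 and -0.12 on control arrays 1 to 3 and -0.08, 0.63 and -0.27 on deleted arrays 1 to 3. Deleted array 2, the highest of the 6 for the 34 interferon-stimulated genes, was thus the highest for these markers too. The granzyme gene Gzma read 10.27 there and between 5.48 and 7.35 on the other arrays, and Gzmb 8.92 there and between 5.72 and 7.12 elsewhere. Ncr1, which marks natural killer cells, stayed between 4.20 and 4.88 on all arrays. That is below the lower quartile of all probe sets (5.07), where values hold mostly background, so Ncr1 cannot tell whether these cells were present. These 3 genes were named after their values were seen. Of the 12 markers, 8 had a higher and 4 a lower mean in the deleted group, with differences from -0.79 to 1.19. Pan-leukocyte markers, with Lcp1 and Laptm5 the brightest, were at 0.51 on control array 3 and 0.25 on deleted array 2 and between -0.43 and 0.02 on the other arrays. The part of these cells in the values of the interferon-stimulated genes was not tested.

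**Figure D4:**
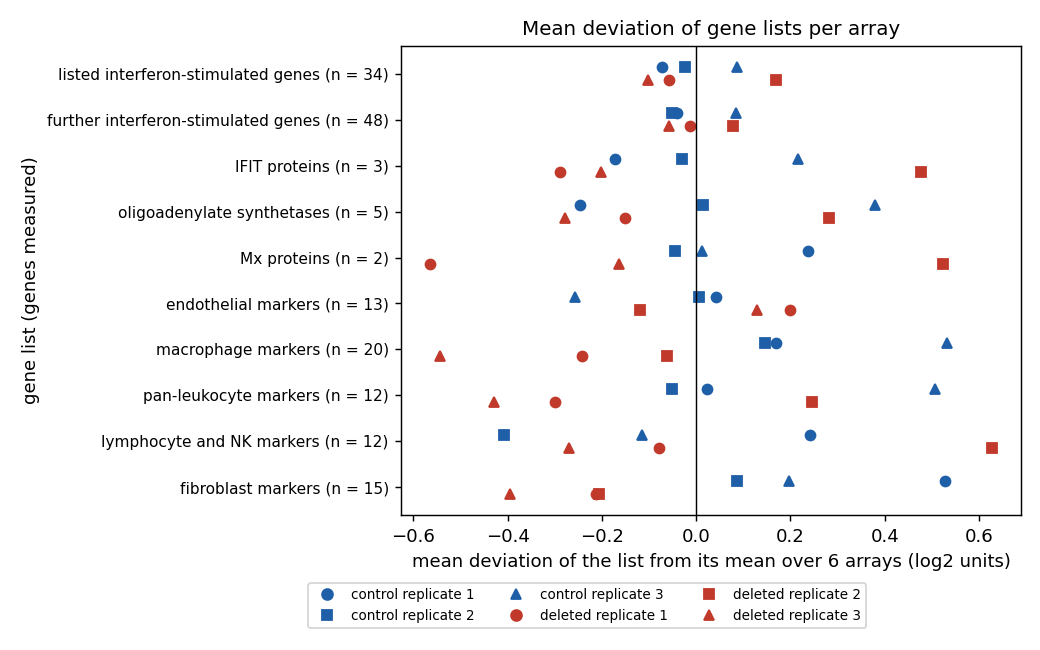
Mean deviation of each gene list from its mean over the 6 arrays (x axis, log2 units) on each array, with control arrays in blue and deleted arrays in red and the shape of the point giving the replicate. For the 34 interferon-stimulated genes deleted replicate 2 lies at 0.17 and the other arrays between -0.10 and 0.09, and the same array lies at 0.63 for lymphocyte and natural killer cell markers, while macrophage and fibroblast markers separate the groups.

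Control array 3 was next highest for the 34 genes and, at 0.06, the highest over all genes. It had the largest gap between the 3′ and 5′ control probe sets of Actb (1.67, against 0.99 to 1.29 on the other arrays) and of Gapdh (1.31, against 0.75 to 1.01), a measure of RNA degradation or short amplified products. The part of this gap in the values was not tested. Ets2 itself, whose deletion was aimed at fibroblasts, read 14.38 in the controls and 14.41 in the deleted group, a difference of 0.02 (SE 0.14). Deletion in the sorted cells was not measured, and the Ets2 signal does not serve to check the genotype here.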

How the data were processed

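Gene expression was measured on Affymetrix mouse expression arrays, 1 for each of the 6 samples. The authors deposited log2 values made by RMA, which corrects background, applies quantile normalization and summarizes each probe set. The RMA version, not given in the sources used here, and its probe annotation could not be stated. Values ran from 2.31 to 14.9, array medians from 7.02 to 7.07, and any 2 arrays had at most 0.218% of values in common. Differences of dim probe sets are narrowed by RMA, and the number of arrays limits the precision.

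After 64 array controls had been removed from 45101 probe sets, 45037 were tested without a filter. By the platform annotation 34945 had 1 gene, 932 several and 9160 none, and 34741 of those with 1 gene matched a RefSeq gene number. Groups were compared without covariates by lmFit and eBayes of limma (3.58.1, R 4.3.3), with two-sided p-values adjusted over all tested probe sets by Benjamini-Hochberg. This step was tested on simulated data. Arrays of a group were biological replicates according to the study. No list was given a test of its own. The listed genes, the pathway and marker lists and the rules were chosen with earlier results of these data known. All listed genes were named. Values on every array were given for 17 of them, namely the top pair of each role by absolute difference, Stat2, Irf9, Irf7 and Rigi, and any gene with an unadjusted p under 0.05 or without overlap. Of each pathway list the 3 genes with the largest absolute difference were named, with Irf1, Cxcl10, Ifnar1 and Ifnar2 always among them. Of each marker list the brightest pair was named, with Pecam1, Cdh5, Ptprc, Adgre1 and Siglech.

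As alternatives, the prior was trended and robust, arrays were weighted, values were centred by array or quantile-normalized again, dim probe sets were filtered at the median, unmoderated and Welch tests were run, the number in the sample titles was a block, genes were represented by the mean or the most variable probe set, and each array was left out in turn. Motifs were searched with Python 3.11.15.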

Additional observations from a re-analysis of the deposited data

How the results depend on the processing

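No listed gene and no probe set had an adjusted p under 0.05 in any setting, so 0 calls were gained or lost. With 3 arrays a group the intervals had a median half-width of 0.45 on the log2 scale, which limits the size of difference that can be seen. The median difference of 0.01 ran from -0.14 (without deleted replicate 2) to 0.053 when 1 array was left out, and the mean deviation, deleted minus control, from -0.076 to 0.060. The count of genes with an unadjusted p under 0.05, 2 in the reported fit, was 1 with the Welch test, where Bst2 had a p of 0.068, and 1 with the filter at the median signal, which removed Oas3. With array weights it was 2, but these were Stat2 and Bst2, and Oas3 had a difference of -0.33 (unadjusted limma p of 0.075). The weight was 8.3 for control replicate 2 and 0.38 to 0.99 for the other arrays. The weighted control mean thus rested mostly on control replicate 2. The count was 1 to 2 when 1 array was left out. Bst2 alone was below 0.05 without control replicate 1, control replicate 3 or deleted replicate 3, Oas3 alone without control replicate 2 or deleted replicate 1, and Oas3 and Mx1 without deleted replicate 2. The count without overlap, 4, was 4 to 8 when 1 array was left out, with 8 without control replicate 1 and 8 without deleted replicate 2, where fewer arrays need to be apart. No share of all genes is given for these settings, and the 6.07% of all genes belongs to 3 arrays against 3. The count was 3 centred on array medians, without Irgm1, 3 with the mean over probe sets and 3 with the probe set of highest variance, both without Xaf1, and 3 with the filter, without Oas3. Leaving out 1 array gave differences of 0.35 to 0.58 for Bst2, -0.67 to -0.44 for Oas3, 0.19 to 0.35 for Irgm1 and 0.19 to 0.37 for Xaf1. The groups of these genes did not overlap, so the sign could not change when an array was left out.

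The identifier numbers in the sample titles were shared by 2 pairs. Deviations of same-numbered samples correlated at 0.17 and -0.02, and those of other pairs of a control and a deleted sample at -0.44 to 0.37. The labels do not say what the number marks, and the samples were not treated as paired. With this replicate block as a fixed effect the count with an unadjusted p under 0.05 was 4 (Oas1a, Ifit3, Igtp and Bst2) and the median difference 0.07. Control replicate 3 and deleted replicate 3 shared no number with another sample, so these values rest on the 2 shared pairs alone.

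Over genes and settings, 495 of 576 values kept the sign of the reported difference and 81 did not. The Welch test, the unmoderated test, the trended and robust prior and the filter leave the difference itself unchanged, so their values could not change sign. The same holds for the 20 genes with 1 probe set when genes were represented by the mean or the most variable probe set. The count of kept signs is therefore partly fixed in advance. With array weights, reversed differences were Irf9 -0.064, Irf7 -0.045, Ifih1 0.065, Oasl1 -0.21, Oasl2 0.010, Usp18 -0.046, Dtx3l 0.035, Parp9 -0.028, Igtp 0.082 and Ifi27 0.0045. Centred on array medians, reversed differences were Gbp3 0.012. As the mean over probe sets, reversed differences were Trim25 -0.010, Ifi35 0.092 and Ifi27 0.13. With the fixed replicate block, reversed differences were Ifih1 0.37, Eif2ak2 0.078, Oas2 0.28, Oasl2 0.29, Trim30a -0.15, Parp9 -0.044, Ifit1 0.18, Gbp2 -0.015, Gbp3 0.11, Igtp 0.51, Rsad2 -0.044, Samd9l -0.051, Ifi35 0.19 and Ifi27 0.040. With the random replicate block, reversed differences were Ifih1 0.0025, Gbp3 0.0037 and Igtp 0.016. With the probe set of highest variance, reversed differences were Xaf1 -0.18 and Ifi27 0.30. When 1 array was left out, the differences that changed sign ran over Irf7 -0.25 to 0.23, Oas1a -0.14 to 0.34, Oasl1 -0.20 to 0.25, Usp18 -0.18 to 0.23, Dtx3l -0.12 to 0.054, Mx2 -0.17 to 0.21, Parp14 -0.084 to 0.13, Rsad2 -0.081 to 0.31, Ifih1 -0.16 to 0.22, Eif2ak2 -0.28 to 0.11, Oas2 -0.25 to 0.085, Oasl2 -0.20 to 0.18, Trim30a -0.020 to 0.37, Parp9 -0.069 to 0.17, Ifit1 -0.58 to 0.074, Gbp2 -0.043 to 0.18, Gbp3 -0.11 to 0.076, Igtp -0.29 to 0.34, Samd9l -0.028 to 0.16, Ifi35 -0.34 to 0.18, Rigi -0.041 to 0.24, Trim25 -0.14 to 0.32, Ifit2 -0.28 to 0.066, Mx1 -0.70 to 0.011 and Ifi27 -0.097 to 0.023. The causes were not tested.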
